A study of Mus musculus with 95 samples.

Results

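The comparison described here sets epithelium of thymoma against cortical epithelium of normal thymus in mice. Its members were chosen by the cell type named in the sample labels, and comprise 26 of the 95 tissue segments of the series. Of these, 13 were thymoma epithelium and 13 were control cortical epithelium, with 3 or 4 segments from each of 4 mice per group. RNA was counted with the GeoMx whole transcriptome atlas for mouse, a spatial assay in which probes hybridised to fixed, embedded sections are released by light from chosen areas and sequenced. A segment is the area of 1 region that stained for pan-cytokeratin (PanCK), CD3 or B220, and both groups here were collected under the PanCK mask.

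Thymoma mice 1042, 1044, 1082 and 1157 had the genotype Gtf2ifl/wt Foxn1-Cre/wt and, per the design text of the series, carried a mutant Gtf2i knock-in. Control mice 1057 and 1059 were Gtf2ifl/fl, and control mice 1172 and 1143 were Gtf2ifl/wt, both genotypes with no Cre in the labels. All 8 mice thus carried at least 1 floxed Gtf2i allele, and no control with Cre alone was part of the comparison. The age and sex of the mice are not given in the sources used here. The mice lay in pairs on 4 slides, and each slide held 1 genotype, so that slide and group cannot be told apart.

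Thymic epithelium forms the scaffold in which T cells develop. Cortical epithelial cells support immature T cells and positive selection, whereas medullary epithelial cells display tissue antigens and take part in the removal of self-reactive T cells. Foxn1 is the master transcription factor of thymic epithelium in cortex and medulla, and Cre placed under it acts in these cells. Gtf2i encodes a general transcription factor that also binds initiator elements, and it is recurrently mutated in human thymoma. A thymoma is a tumour of thymic epithelium that is often mixed with many immature T cells. The files and tables used here pair no probe with a gene name. The stain, not marker genes, therefore defines the epithelium, Gtf2i itself was not looked at, and groups of probes that marked cell classes of the control thymus stand in for gene lists.

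Each library is the sum of the counts over the PanCK segments of 1 mouse. Thymoma libraries held 5262278 to 13328944 counts. Control cortical libraries held 1490526 to 8526921 counts in 3 mice and 103978 in mouse 1143, in which 1862 of 20175 probes had no count and a floor of 3 counts corresponds to 28.9 CPM (counts scaled to the library total). Floors cover counting error only. The counts of calls, the calls within the sets and the changes of the named probes are given with and without mouse 1143. The members of the sets and the named probes were chosen once, with that mouse among the controls. The labels tie every segment to a mouse, so the mouse was the replicate.

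The PanCK mask took a larger share of the joint PanCK and CD3 mask area in every thymoma mouse than in the cortex of any control mouse. Regions of control medulla were not part of this measure. In regions where both masks were collected, PanCK covered 45.2% of the joint PanCK and CD3 mask area in mouse 1042, 43.5% in 1044, 54.8% in 1082 and 41.7% in 1157. It covered 19.8% in control mouse 1057, 13.6% in 1059, 11.4% in 1172 and 13.7% in 1143. All 4 thymoma mice lay above all 4 control mice, with means of 46.3% ± 5.86 in thymoma and 14.6% ± 3.61 in control cortex (SD, n = 4 each). The exact two-sided permutation test over mice gave p = 0.0286, the smallest that 70 splits allow, and 0.0571 after Benjamini-Hochberg adjustment over the 8 measures tested.

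The share of nuclei showed the same order. The PanCK mask held 34.0%, 36.5%, 28.1% and 22.5% of the nuclei in thymoma mice 1042, 1044, 1082 and 1157, against 13.0%, 7.05%, 13.1% and 15.9% in control mice 1057, 1059, 1172 and 1143. The groups did not overlap, at 30.3% ± 6.28 in thymoma and 12.2% ± 3.71 in control (SD, n = 4 each, exact permutation p = 0.0286, adjusted 0.0571). A thymoma segment covered 120752 ± 29548 µm2 of PanCK mask and a control segment 32900 ± 13690 µm2, also with no overlap between the groups (SD, n = 4 mice each, exact permutation p = 0.0286, adjusted 0.0571).

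The density of nuclei under the mask overlapped between the groups. There were 12.1, 16.5, 9.99 and 11.8 nuclei per 1000 µm2 in thymoma mice 1042, 1044, 1082 and 1157, against 18.5, 13.8, 31.9 and 31.2 in control mice 1057, 1059, 1172 and 1143. The difference of means was −11.3 nuclei per 1000 µm2 (exact permutation p = 0.0571, adjusted 0.0914). The control values fell into pairs by slide and genotype, with both Gtf2ifl/wt mice above both Gtf2ifl/fl mice.

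The libraries differed in technical measures as well. Sequencing saturation, taken as the part of aligned reads that did not add to the counts, was 74.7% ± 2.51 in thymoma and 84.8% ± 4.50 in control, with no overlap (SD, n = 4 each, exact permutation p = 0.0286, adjusted 0.0571). Counts per nucleus were 1076 to 3160 in thymoma and 45.4 to 2173 in control, and overlapped (exact permutation p = 0.143, adjusted 0.163). The 202 highest probes of each library, 1% of the panel, held 20.9% ± 1.92 of the counts in thymoma and 18.4% ± 0.487 in control (SD, n = 4 each, exact permutation p = 0.0857, adjusted 0.114). None of the 8 measures passed the adjusted threshold of 0.05, and without mouse 1143 no permutation p can be below 0.0571. Without that mouse the control means were 14.9% of the joint mask area, 11.0% of the nuclei, 35709 µm2 per segment, 21.4 nuclei per 1000 µm2 and a saturation of 87.0% (n = 3). The part of mask area, nuclear density and saturation in the differences between probes was not tested.

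**Figure D1:**
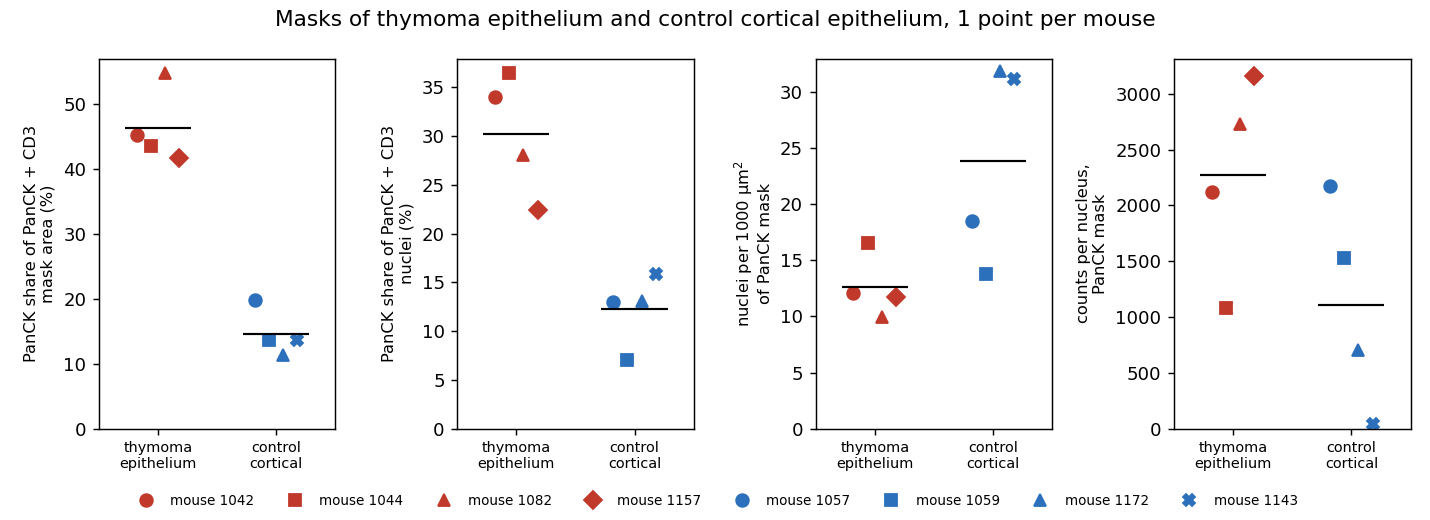
Mask and library measures per mouse, thymoma epithelium left of control cortical epithelium, with 1 point per mouse and a bar at the group mean. From left to right the y axes give the PanCK share of the joint PanCK and CD3 mask area (%), the same share of nuclei (%), nuclei per 1000 µm2 of PanCK mask and counts per nucleus. The first 2 panels show thymoma mice at 41.7% to 54.8% of the area and 22.5% to 36.5% of the nuclei, all above the control mice, and the other 2 overlap between groups.

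Probe levels were then compared between the 4 thymoma and the 4 control libraries, to ask how epithelium with the mutant Gtf2i departs from normal cortical epithelium. Of 20175 probes tested, 691 differed, which is 3.43% of the panel (quasi-likelihood test of edgeR, p adjusted over all probes by Benjamini-Hochberg, threshold 0.05). The 484 that were higher in thymoma are 2.4% of the panel and the 207 that were lower 1.03%. Upper-quartile scaling gave 407 higher and 818 lower and moved the median of all probes to −0.18 (log2), against −0.04 with the TMM scaling used here. Rises were larger than falls, with a median log2 fold change of 0.99 among the called rises (quartiles 0.80 and 1.24) and of −0.58 among the called falls (quartiles −0.65 and −0.53). Among the rises 26 exceeded 2 log2 units, and among the falls 2. In segments, fewer cells of a type and less RNA per cell cannot be told apart, and this holds for every change given below.

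A test against a fold of 1.5, rather than against no change, called 35 probes, all higher in thymoma, which is 0.173% of the panel (edgeR glmTreat, adjusted p below 0.05). The number of these was 5 without control mouse 1172, 8 without 1059 and 10 without 1057, 22 without thymoma mouse 1042 and also 22 without 1157, and 53 without mouse 1143. Among the falls the test called 0 probes. In that test 575 probes of either direction had an unadjusted p below 0.05.

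Rises and falls lay at different levels of the panel. When probes were divided by mean CPM over the 8 libraries into 5 bins of 4035 probes, the highest bin (median 79.4 CPM) held 231 rises and 13 falls. The next to lowest bin (median 22.3 CPM) held 18 rises and 76 falls. Without mouse 1143 the highest bin held 600 rises and 98 falls, and the next to lowest 47 and 266. The called rises thus sat mostly among abundant probes and the called falls mostly among probes of low to middle count. The bins used the levels of both groups, so a rise moves its own probe up and a fall moves it down. The part of this, and of the count a call needs, in the pattern was not tested.

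Without mouse 1143, 1192 probes were higher in thymoma and 718 lower, 9.47% of the panel (5.91% higher and 3.56% lower). The counts also depended on other mice: they were 41 higher and 9 lower without control mouse 1172, 58 and 5 without 1057, 92 and 18 without 1059, 145 and 12 without thymoma mouse 1042, 180 and 15 without 1157, and 772 and 571 without 1082. With the Gtf2ifl/fl controls alone, 157 were higher and 40 lower. With the Gtf2ifl/wt controls alone, of which mouse 1143 is 1 of 2, edgeR called 0 higher and 1 lower, and 3574 probes had an unadjusted p below 0.05.

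**Figure D2:**
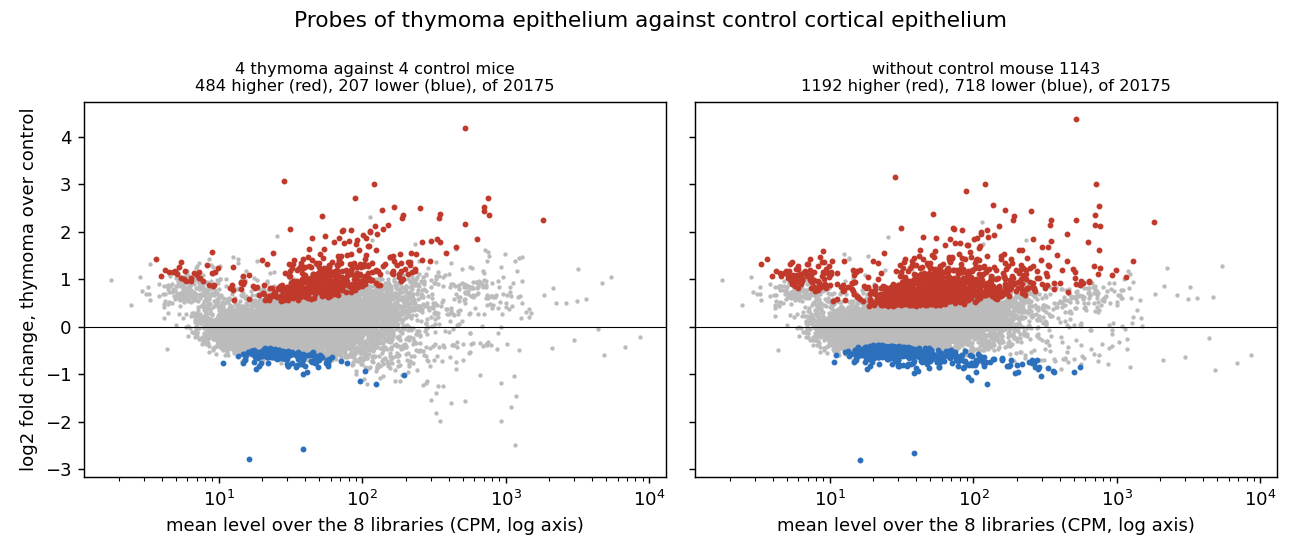
Log2 fold change of each probe, thymoma epithelium over control cortical epithelium, against its mean level over the 8 libraries (CPM, log axis), with all 8 mice on the left and without control mouse 1143 on the right. Red points are called higher in thymoma (484 and 1192), blue points called lower (207 and 718), and grey points not called; the red points spread further from 0 and lie further right than the blue ones.

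**Figure D3:**
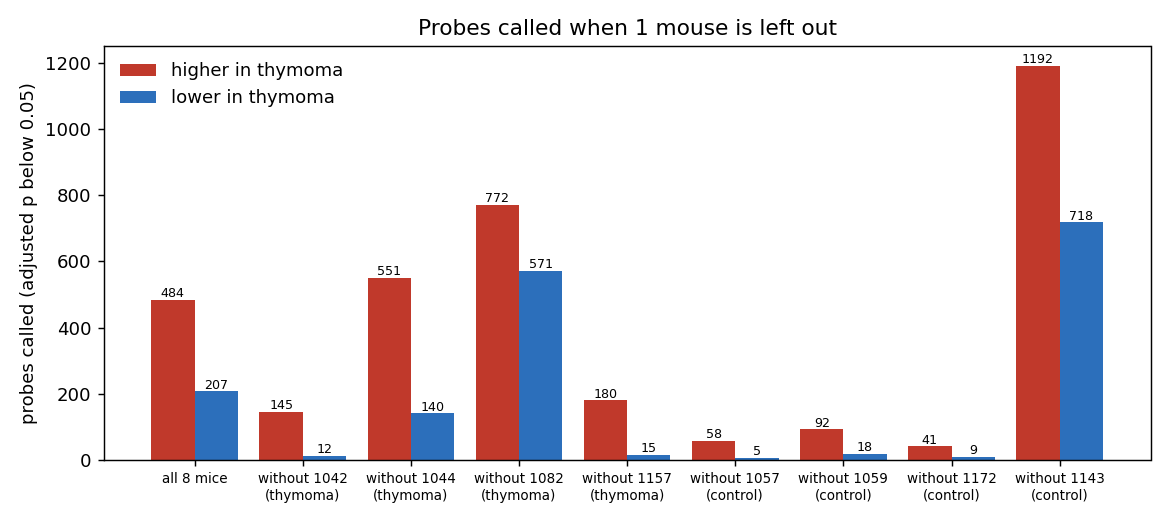
Number of probes called higher (red) and lower (blue) in thymoma epithelium with all 8 mice and with each mouse left out in turn, at an adjusted p below 0.05. The bars run between 41 and 1192 for higher and between 5 and 718 for lower, and are tallest without control mouse 1143.

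The called probes were also viewed mouse by mouse and segment by segment, as a description. CPM values, shares of counts and this separation use library or segment totals, without the TMM scaling of the fold changes. Of the 484 rises, 396 had all 4 thymoma libraries above all 4 control libraries, and of the 207 falls, 124 had all 4 below. Over the whole panel 5.10% of probes had all thymoma libraries above and 11.1% all below, with 3.43% called. Without mouse 1143, 467 of the rises and 202 of the falls were separated in this way, beside 7.28% of all probes separated upward and 24.1% downward. At the level of segments, 85 of the rises had all 13 thymoma segments above all 13 control segments, and 6 of the falls had all below, beside 0.496% and 0.0644% of the panel. Without the 3 segments of mouse 1143 these were 144 and 57, beside 0.882% and 1.03% of the panel.

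The spread between mice was similar in both groups. Among probes above the median level, the median SD of log2 CPM between mice was 0.176 over 4 thymoma mice and 0.173 over the 3 deeper control mice. Between the segments of a mouse the median SD was 0.0976 in mouse 1082, 0.118 in 1042, 0.147 in 1157 and 0.180 in 1044. In control it was 0.137 in mouse 1057, 0.248 in 1059 and 0.265 in 1172. All 4 thymoma values lay below those of control mice 1059 and 1172, and that of mouse 1057 lay among them. Depth moved with this spread, with 1150512 to 5722625 counts per thymoma segment and 426333 to 2422407 per segment of these control mice, and its part was not tested.

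Both groups had slides to compare within them. Between thymoma mice 1082 and 1157 on one slide and 1042 and 1044 on the other, 13 probes differed, all lower in mice 1082 and 1157, which is 0.0644% of the panel. Between the Gtf2ifl/fl and the Gtf2ifl/wt control mice, 2 of 20011 probes differed, both higher in Gtf2ifl/fl, or 0.00999% (edgeR, adjusted p below 0.05). Unadjusted p-values below 0.05 numbered 754 between thymoma slides and 501 between control genotypes. DESeq2 called 56 and 0, and without mouse 1143 edgeR called 28 between control genotypes. Each of these fits had at most 2 mice a side, against 4 a side in the comparison of thymoma with control.

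Of the 5 probe sets looked at, the one that marks epithelium in normal medulla had the largest share of members called higher in thymoma epithelium. The epithelial set comprised the 523 probes that were higher in medullary epithelium than in medullary T cell segments of control mice, called from libraries other than those compared. It took 7.01%, 7.21%, 5.42% and 7.12% of all counts in thymoma mice 1042, 1044, 1082 and 1157. In control cortical epithelium it took 4.09%, 4.06%, 3.54% and 4.35% in mice 1057, 1059, 1172 and 1143. Every thymoma mouse lay above every control mouse, and 3 of the 4 also lay above control medullary epithelium, where the set was chosen and took 6.60% in mouse 1057, 4.61% in 1172 and 4.08% in 1143. Mouse 1082 was the lowest of the thymomas and lay below the medulla of mouse 1057. The separation from control cortex was not particular to the PanCK mask. Under the CD3 mask the set took 3.48% to 4.47% in thymoma and 2.49% to 3.00% in control cortex, also with no overlap.

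Of the 523 epithelial probes, 31.4% were called higher in thymoma and 0.191% lower, beside 2.4% and 1.03% of all probes. Their median log2 fold change lay 0.58 above that of all probes. It lay 0.55 above against the Gtf2ifl/fl controls alone and 0.62 above against the Gtf2ifl/wt controls alone, where no member was called. The number of members called higher was 25 without control mouse 1172, 33 without 1057 and 47 without 1059, 80 without thymoma mouse 1042 and 85 without 1157, against 164 with all mice. Without control mouse 1143 it was 234, or 44.7%, beside 5.91% of all probes. Without mouse 1172, where the fewest were called, it was 4.78%, beside 0.203% of all probes.

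The 439 probes that marked B cell segments against medullary T cell segments in control mice form the B cell set. They took 8.86%, 9.62%, 7.35% and 9.89% of counts in thymoma mice 1042, 1044, 1082 and 1157, against 5.88%, 6.85%, 4.71% and 5.69% in control mice 1057, 1059, 1172 and 1143. The groups did not overlap, and 10.5% of members were called higher, beside 2.4% of all probes. Under the CD3 mask the set took 6.11% to 7.69% in thymoma and 3.86% to 4.91% in control cortex, also with no overlap. In B cell segments themselves the set took 11.2% to 12.8% in thymoma and 7.81% to 11.7% in control. Of the B cell probes 55 also belong to the epithelial set, which is 12.5% of the B cell set and 10.5% of the epithelial set, and 113 belong to the medullary set described next, 25.7% of the B cell and 11.9% of the medullary set. Among B cell probes, 2 were called higher without control mouse 1172, 5 without 1057 and 6 without 1059, 9 without thymoma mouse 1042 and 11 without 1157, 88 without 1082 and 114 without 1143, against 46 with all mice. As shares these ran from 0.456% without mouse 1172, beside 0.203% of all probes, to 26.0% without mouse 1143, beside 5.91%.

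Probes of either thymic zone were taken from T cell segments, medulla against cortex. The 952 medullary probes took 4.87%, 5.55%, 4.21% and 5.65% of counts in thymoma mice 1042, 1044, 1082 and 1157, and 4.13%, 4.01%, 3.69% and 3.89% in control mice 1057, 1059, 1172 and 1143. Mouse 1082 was close to control mouse 1057, and the groups did not overlap. Of these probes 92, or 9.66%, were called higher and 0.420% lower, beside 2.4% and 1.03% of all probes. The number called higher was 12 without control mouse 1172, 16 without 1057 and 17 without 1059, 32 without thymoma mouse 1042 and 36 without 1157, 171 without 1082 and 177 without 1143. As shares these ran from 1.26% without mouse 1172, beside 0.203% of all probes, to 18.6% without mouse 1143, beside 5.91%. The medullary set shares 178 probes with the epithelial set, 18.7% of the 952 medullary and 34.0% of the 523 epithelial probes.

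The 1039 cortical probes took 17.6%, 14.2%, 15.6% and 17.1% in thymoma mice 1042, 1044, 1082 and 1157, against 13.6%, 15.6%, 12.2% and 12.2% in control mice 1057, 1059, 1172 and 1143. These groups overlapped, since control mouse 1059 lay above thymoma mouse 1044. Under the CD3 mask the set took 15.1% to 19.6% in thymoma and 11.5% to 14.9% in control cortex, with no overlap. Of the cortical probes 18, or 1.73%, were called higher, near the 2.4% of all probes, and 0.289% lower, beside 1.03%. Their median log2 fold change lay 0.21 above that of all probes, and that of the medullary probes 0.26 above. The fold change was above 0 for 739 of 1039 cortical and 678 of 952 medullary probes, beside 9218 of all 20175. By medians the 2 sets thus shifted to a similar degree. The number called higher ran from 0 without control mouse 1172 to 28 without thymoma mouse 1082 and 75 without control mouse 1143, and was 2 without 1057, 5 without 1059, 5 without 1042 and 7 without 1157. The 75 are 7.22% of the set, beside 5.91% of all probes called in that fit, and the 28 are 2.69%, beside 3.83%, so these counts are near the background. Control medullary epithelium took 6.46% to 8.25% on this set, and all 4 thymoma mice lay above it.

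T cell probes, the 228 that were higher in medullary T cell segments than in medullary epithelium, took 2.95%, 3.44%, 4.08% and 3.90% of counts in thymoma mice 1042, 1044, 1082 and 1157. In control mice 1057, 1059, 1172 and 1143 they took 5.32%, 5.02%, 4.85% and 2.56%. The 4 thymoma mice lay below 3 of the control mice, and shallow mouse 1143 lay below all of them. Of these probes 2, or 0.877%, were called lower with all mice, beside 1.03% of all probes. Without mouse 1143, 9 or 3.95% were called lower and 2 or 0.877% higher, beside 3.56% and 5.91%. The lower calls are near the background and no result about the T cell set. The part of T cell RNA under the PanCK mask, and of the share of the area that the mask took, in the rise of the epithelial probes was not tested.

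**Figure D4:**
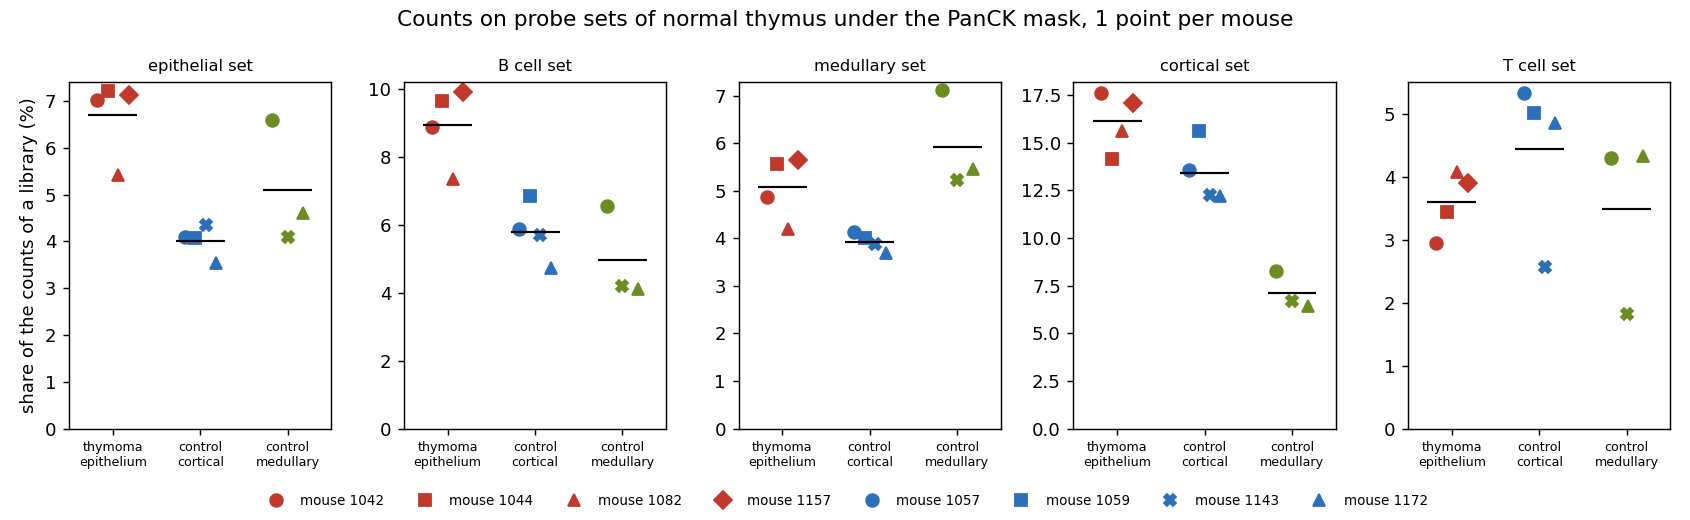
Share of the counts of a library (%, y axis, 1 panel per probe set) under the PanCK mask, with 1 point per mouse and a bar at the group mean, for thymoma epithelium, control cortical epithelium and control medullary epithelium. Thymoma mice lie above control cortical mice on the epithelial set (5.42% to 7.21% against 3.54% to 4.35%), the B cell set and the medullary set, and overlap them on the cortical and T cell sets.

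Of the rises, 48.1% or 233 of 484 belonged to at least 1 of the 5 sets, beside 13.3% of all probes and with 164 of them in the epithelial set. Of the falls, 10 of 207 or 4.83% belonged to any set. The 251 other rises and most falls thus had no class of normal thymus that marked them in these contrasts.

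The T cell mask of the same mice was used to ask whether the changes were shared with the T cell segments. The regions were also the same, except for a region of thymoma mouse 1042 that had a PanCK but no CD3 segment. Its counts stayed in the PanCK library. The CD3 segments were 12 in thymoma and 13 in control cortex. Probes called higher under the PanCK mask also took more of the counts under the CD3 mask of thymoma, at 4.16%, 3.25%, 2.64% and 2.88% in mice 1042, 1044, 1082 and 1157. In control cortical T cell segments they took 2.04%, 1.89%, 1.85% and 1.75% in mice 1057, 1059, 1172 and 1143, with no overlap. Under the PanCK mask, where they were chosen, the shares were 4.97% to 6.53% in thymoma and 1.88% to 2.57% in control. Under the B220 mask they were 2.43% to 2.95% in thymoma and 2.09% to 2.86% in control, and overlapped.

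Probes called lower under the PanCK mask took 0.424%, 0.577%, 0.636% and 0.525% of the counts under the CD3 mask of thymoma mice 1042, 1044, 1082 and 1157. They took 0.827%, 0.787%, 0.940% and 0.566% in control mice 1057, 1059, 1172 and 1143. Thymoma lay below control in every mouse but shallow 1143. These lists were chosen on the PanCK libraries of the same mice, so the shares are a description.

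The difference between the masks was tested probe by probe as an interaction, with the mouse as a block. The change under the PanCK mask exceeded the change under the CD3 mask for 245 probes and lay below it for 89, together 1.66% of the panel (edgeR quasi-likelihood test, adjusted p below 0.05). Without mouse 1143 these numbers were 213 and 146, or 1.78% of the panel (1.06% and 0.724%). Without the block the test called 0 in either direction, with 247 probes at an unadjusted p below 0.05. With the block, the counts were 46 and 11 without control mouse 1057, 67 and 13 without 1172, 152 and 35 without 1059, 255 and 56 without thymoma mouse 1044, and 266 and 144 without 1082. Most of these differences were moderate, with a median of 0.54 among the 245 and of −0.44 among the 89 (log2).

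By set, the epithelial probes were the ones whose change was larger under the PanCK mask. Of 523, 87 or 16.6% had a larger change there and 1 a smaller one, beside 1.21% and 0.441% of all probes, and the set median was 0.21 (log2), against −0.01 for all probes. Without mouse 1143, 77 or 14.7% had a larger change, beside 1.06% of all probes. Medullary probes followed with 39 larger and 3 smaller of 952, or 4.10% and 0.315%. B cell probes had 7 larger and 2 smaller of 439, 1.59% and 0.456%, which is near the background, and no result about the B cell set.

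T cell and cortical probes lay on the other side. Of 228 T cell probes, 31 or 13.6% had a smaller change under the PanCK mask, beside 0.441% of all probes, with a set median of −0.22. Of 1039 cortical probes, 60 or 5.77% had a smaller change and 3 a larger one, with a median of −0.17. Without mouse 1143 the smaller changes numbered 46 T cell probes (20.2%) and 98 cortical probes (9.43%), beside 0.724% of all probes. The cortical and medullary sets were called in part from the control cortical T cell libraries that also enter this test.

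A pair of rising and a pair of falling probes is given by ID. They had the smallest largest p over the fit with all mice and the 8 fits without 1 mouse. The choice was among called probes above the median level of the panel whose groups did not overlap by mouse. The first rising probe, RTS0064300, belongs to the epithelial, medullary and B cell sets. It stood at 267, 184, 181 and 219 CPM in thymoma mice 1042, 1044, 1082 and 1157, against 38.7, 18.1, 30.6 and 28.9 CPM in control mice 1057, 1059, 1172 and 1143. The value of mouse 1143 rests on 3 counts. The means were 213 ± 40.3 CPM in thymoma and 29.1 ± 8.47 CPM in control (SD, n = 4 each), with a log2 fold change of 3.01 (SE 0.296, edgeR adjusted p = 0.000237) and of 3.00 without mouse 1143 (edgeR adjusted p = 3.17e-05).

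Its levels in the single segments of thymoma lay between 102 and 304 CPM, and no control cortical segment was above 58.8 CPM. Control medullary epithelium stood at 311 CPM in mouse 1057, 134 in 1172 and 83.8 in 1143, so the thymoma levels of RTS0064300 fell within the range of normal medulla. Under the CD3 mask it was at 133, 69.0, 47.1 and 52.6 CPM in thymoma mice 1042, 1044, 1082 and 1157, and at 24.3, 22.7, 25.7 and 11.4 CPM in control mice 1057, 1059, 1172 and 1143. The change was larger under the PanCK than under the CD3 mask by 1.16 (log2, SE 0.222, edgeR adjusted p = 0.00522). Under the B220 mask RTS0064300 was at 337, 133, 353 and 58.3 CPM in thymoma mice 1042, 1044, 1082 and 1157. That is above the epithelium of mice 1042 and 1082 and below that of 1044 and 1157. Control B cell segments held 87.0, 169 and 172 CPM in mice 1057, 1059 and 1172, and 0 in 1143.

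The second rising probe, RTS0068139, belongs to none of the 5 sets. It stood at 61.3, 88.6, 76.4 and 49.97 CPM in thymoma mice 1042, 1044, 1082 and 1157, against 20.5, 16.8, 25.2 and 19.2 CPM in control mice 1057, 1059, 1172 and 1143, with 2 counts behind the last value. The means were 69.1 ± 16.9 CPM in thymoma and 20.4 ± 3.55 CPM in control (SD, n = 4 each), a log2 fold change of 1.88 (SE 0.195, edgeR adjusted p = 0.000237), also 1.88 without mouse 1143 (adjusted p = 6.43e-05). All thymoma segments lay at or above 39.7 CPM and all control cortical segments at or below 31.6 CPM.

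Unlike the first probe, RTS0068139 stayed below its thymoma epithelium levels in every library of the other classes. Control medullary epithelium held 31.7 CPM in mouse 1057, 33.0 in 1172 and 25.1 in 1143, below all 4 thymomas. Under the CD3 mask it was at 35.5, 40.7, 25.4 and 21.9 CPM in thymoma mice 1042, 1044, 1082 and 1157 and at 24.1, 17.1, 28.7 and 17.2 CPM in control mice 1057, 1059, 1172 and 1143, which overlap. Under the B220 mask it was at 19.5 to 23.4 CPM in thymoma and 19.0 to 31.1 CPM in the 3 deeper control mice. Its change was larger under the PanCK than under the CD3 mask by 1.34 (log2, SE 0.165, edgeR adjusted p = 0.000117).

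The falling probe RTS0079722 stood at 19.9, 23.2, 28.4 and 21.8 CPM in thymoma mice 1042, 1044, 1082 and 1157, against 52.1, 42.3, 60.6 and 57.7 CPM in control mice 1057, 1059, 1172 and 1143. The means were 23.3 ± 3.62 CPM in thymoma and 53.2 ± 8.09 CPM in control (SD, n = 4 each). That the groups did not overlap by mouse was a condition of the choice. The ratio of these means was 0.439. With TMM scaling the log2 fold change was −0.99 (SE 0.143, edgeR adjusted p = 0.00283) and −0.98 without mouse 1143 (edgeR adjusted p = 0.00129). The other falling probe, RTS0077514, stood at 21.7, 24.3, 25.2 and 20.1 CPM in the same thymoma mice, against 48.7, 38.2, 47.5 and 48.1 CPM in the same control mice. Its log2 fold change was −0.84 (SE 0.129, edgeR adjusted p = 0.0042), or −0.82 without mouse 1143 (adjusted p = 0.00203), and it lost its call without control mouse 1057 (adjusted p = 0.0576). In mouse 1143 these probes had 6 and 5 counts.

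Both falling probes belong to no set, and under the CD3 mask both were called lower in thymoma without mouse 1143. In that T cell comparison 3034 probes were called without mouse 1143, 15.0% of the panel, with 1355 higher (6.72%) and 1679 lower (8.32%). With all mice edgeR called 0 higher and 1 lower (0.00496%), with 4629 probes at an unadjusted p below 0.05. RTS0079722 was at 19.8 to 33.4 CPM there, against 43.1 to 67.9 CPM in the 3 deeper control mice. RTS0077514 was at 20.5 to 32.0 CPM in thymoma, against 42.0 to 58.5 CPM in the 3 deeper control mice. The T cell change of RTS0079722 had a log2 fold change of −0.84 without mouse 1143 (edgeR adjusted p = 0.0268) and of −0.67 with all mice (adjusted p = 0.176). That of RTS0077514 was −0.70 (adjusted p = 0.0269) and −0.66 (adjusted p = 0.148). The differences between the masks were −0.13 for both probes (SE 0.113 each, edgeR adjusted p = 0.707 for RTS0079722 and 0.726 for RTS0077514). Against the Gtf2ifl/wt controls alone none of the 4 probes passed, with adjusted p between 0.0578 and 0.175. The log2 fold changes there were 3.05 for RTS0064300, 1.71 for RTS0068139, −1.14 for RTS0079722 and −0.83 for RTS0077514.

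**Figure D5:**
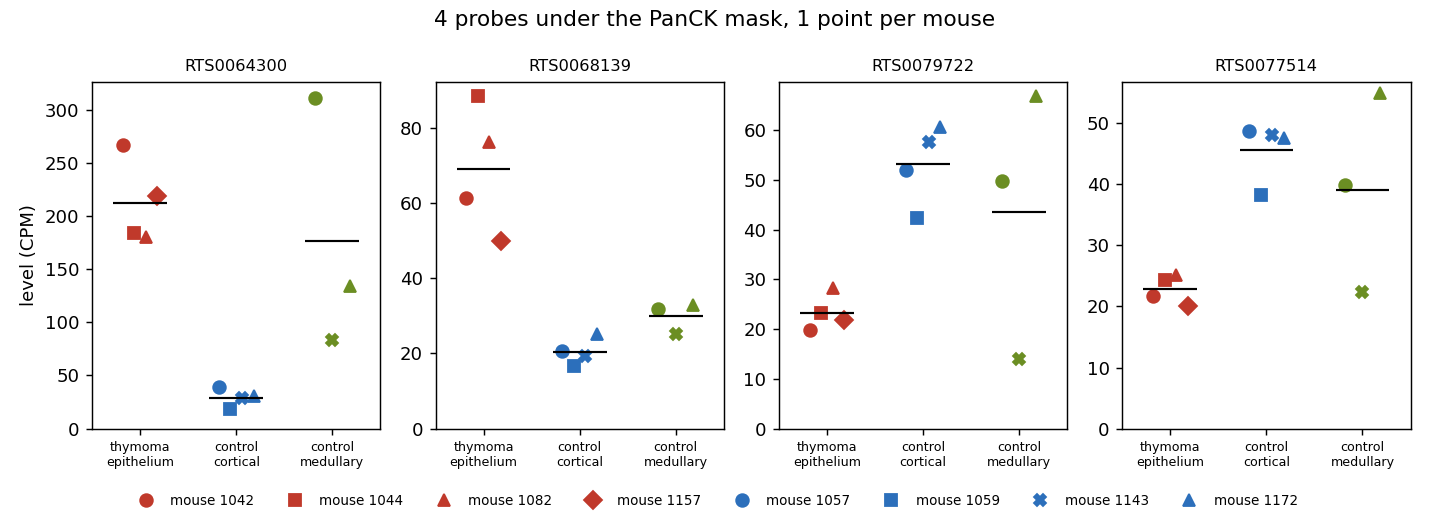
Level (CPM, y axis) of 4 probes under the PanCK mask, 1 point per mouse with a bar at the group mean, in thymoma epithelium, control cortical epithelium and control medullary epithelium. RTS0064300 is high in thymoma and in control medulla, RTS0068139 is high in thymoma, and RTS0079722 and RTS0077514 are lower in thymoma than in control cortex; points of mouse 1143 rest on few counts.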

How the data were processed

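Each segment has 1 file of unnormalized probe counts, which the authors made with GeoMx NGS Pipeline 2.0.0 and deposited in DCC format 0.02, per the file headers. In 19 of 95 files the deposited count column has no usable name and was recorded as another unit; those files were read like the rest, and all their values are whole. Probes not listed were set to 0. No background was subtracted, since negative probes could not be told from others.

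Counts were summed per mouse and class. Probes were filtered by filterByExpr (which removed none in the comparison of thymoma with control), libraries scaled by TMM, and groups compared by quasi-likelihood tests of edgeR 4.0.16 (R 4.3.3), with Benjamini-Hochberg adjustment over the panel and a threshold of 0.05. Alternatives used DESeq2 1.42.0, limma 3.58.1 with a prior count of 2, other scalings and filters, and fewer mice. The interaction kept the mouse as a block, as the labels give both masks of a mouse; deviations of a mouse's epithelium and T cell libraries from their class means correlated at 0.592 to 0.878 over 10087 probes, above those with any other mouse. Scripts were tested on simulated data. Mask measures were compared by exact permutation with scipy 1.17.1.

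The 4 named probes were taken from 354 rising and 39 falling probes that were called, above the median level and separated by mouse. The members, probe sets and tests were chosen with earlier results of these data known, so the sets are no independent support. Gene lists were not used, because no table used here names the probes.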

Additional observations from a re-analysis of the deposited data

Results flagged for a closer look

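In 34 sets of 4 mice that were screened for a mouse far from the others, 4 were found, where chance gives about 1 in 20. Control mouse 1143 had the lowest sequencing saturation of its group, 78.1%, against 86.2% to 87.5% in the other control mice. It also had the lowest share of counts on T cell probes, 2.56%, against 4.85% to 5.32% in the others, and both values come from its library of 103978 counts. Thymoma mouse 1082 had the lowest share of counts on epithelial probes, 5.42%, against 7.01% to 7.21% in the other thymoma mice. It also had the largest PanCK share of the mask area, 54.8%. Probe RTS0077514 was lowest in control mouse 1059, at 38.2 CPM against 47.5 to 48.7 CPM in the other control mice.

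The change between thymoma and control differed between the PanCK and the CD3 mask in the interaction test of edgeR with the mouse as a block. It was larger under PanCK for 245 probes and smaller for 89. The differences were 1.16 for RTS0064300 and 1.34 for RTS0068139 (log2), both larger under PanCK.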

How the results depend on the processing

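For higher and lower probes, 484 and 207 with all mice, RLE size factors gave 459 and 195. The filter removed none of the 20175 probes, so leaving it out is the same fit. Probes above the median level gave 241 and 116, DESeq2 731 and 102, voom with sample weights 2223 and 2028 (mouse 1143 at a weight of 0.221) and voom on segments 1464 and 550. Upper-quartile scaling gave 818 lower. Limma on segment means called 0 and 0, with 1029 probes at an unadjusted p below 0.05 and a median of all probes of 0.51, and without mouse 1143 it called 1095 and 622. The Gtf2ifl/fl controls gave 157 and 40 and the Gtf2ifl/wt controls 0 and 1. Without mouse 1143 the higher count of 1192 became 549 above the median level and 1904 with DESeq2, and the lower count of 718 became 2124 under upper-quartile scaling. Leaving out 1 mouse gave 41 to 1192 higher, 5 to 718 lower, 5 to 53 beyond 1.5-fold, and 28 between control genotypes.

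The interaction called 334 probes with the mouse as replicate block and 0 higher and 0 lower without it, 171 lower under upper-quartile scaling, and 46 to 266 higher and 11 to 146 lower with 1 mouse left out. DESeq2 gave 0 between control genotypes and 56 between thymoma slides. With the median over segments, the share of the highest probes differed by 2.52 percentage points (exact permutation p = 0.0286). The difference in counts per 1000 µm2 ran from −973 to 11992 with 1 mouse left out, and was negative without mouse 1143. The median of the T cell set relative to all probes, −0.05, turned to 0.15 with the Gtf2ifl/wt controls and to 0.0135 without mouse 1059, and lay between −0.133 and 0.0135 with 1 mouse left out. The medians of the other 4 sets stayed above that of all probes in every setting tried. The 4 named probes kept their direction in all 18 settings. These settings include the fits without 1 mouse by which the probes were chosen, so the kept direction is no independent support. Each of the 4 lost its call with limma on segment means and with the Gtf2ifl/wt controls alone. The cause of these shifts was not tested. Depth limits what the library of mouse 1143 can show below 28.9 CPM.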
